A study of Arabidopsis thaliana with 16 samples.

Results

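The genes described here encode 9 intracellular immune receptors of Arabidopsis thaliana, 4 sensors (RPM1, ZAR1, RPS2 and RPP13) and 5 helpers (NRG1A, NRG1B, ADR1, ADR1-L1 and ADR1-L2). They were chosen by name, with earlier results of these data known, so their shares are described and not tested against the background. A gene counted as called in a library when a peak of that library's list was assigned to it as the nearest promoter. Of the 9 genes, 5 had a peak in at least 1 library, against 12.4% of the 27444 nuclear protein-coding genes, and 3609 genes of all kinds were assigned a peak. They accounted for 20 of the 14333 peaks. Chromatin came from whole 12-day-old seedlings of Col-0, either wild type (WT) or a triple mutant lacking WRKY18, WRKY40 and WRKY33, whose alleles the labels do not name. Seedlings were untreated (0 h) or sampled 2 h after the medium was replaced by medium with 1 µM flg22, the flagellin peptide that triggers pattern-triggered immunity. No group was sampled at 2 h without flg22, so flg22 cannot be told apart from time or the change of medium. The 4 groups had 2 biological replicates each, and the serum used for immunoprecipitation was raised against all WRKY transcription factors.

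Intracellular receptors of this class carry a nucleotide-binding domain and leucine-rich repeats, and detect pathogen effectors inside the cell. Sensors recognise an effector or its action on a host protein: RPM1 and RPS2 both watch over RIN4, ZAR1 works with pseudokinases such as ZED1, and RPP13 confers resistance to downy mildew. Helpers carry an RPW8-like coiled coil and act downstream of sensors, the ADR1 family together with EDS1 and PAD4 and the NRG1 family together with EDS1 and SAG101. WRKY factors bind the W-box element and are major regulators of defence genes. A peak shows where chromatin was enriched by a serum that sees the whole WRKY family. It names no single WRKY protein and says nothing of the transcript level.

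Peaks at these receptors were found mainly in untreated plants and in the mutant, and neither WT library at 2 h held one. In untreated WT 3 of the 9 genes were called in replicate 1 and 3 in replicate 2, and after flg22 the counts were 0 and 0. The untreated mutant had 5 and 5 called genes, and the treated mutant 1 and 3. Of all nuclear protein-coding genes, 4.59% and 4.93% were called in the untreated WT libraries and 6.35% and 6.51% in the treated ones. For the mutant these shares were 4.79% and 5.68% untreated, and 6.58% and 7.11% treated. The receptor counts were thus lower at 2 h in both genotypes although the lists were longer, at 1992 to 2213 peaks against 1372 to 1720 at 0 h. In both libraries of a group the called receptors numbered 2 for untreated WT (background 2.83%), 0 for treated WT (3.87%), 5 for the untreated mutant (3.15%) and 1 for the treated mutant (3.83%). With replicate 1 of the treated mutant left out, a call in replicate 2 was enough and the last count was 3.

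**Figure D1:**
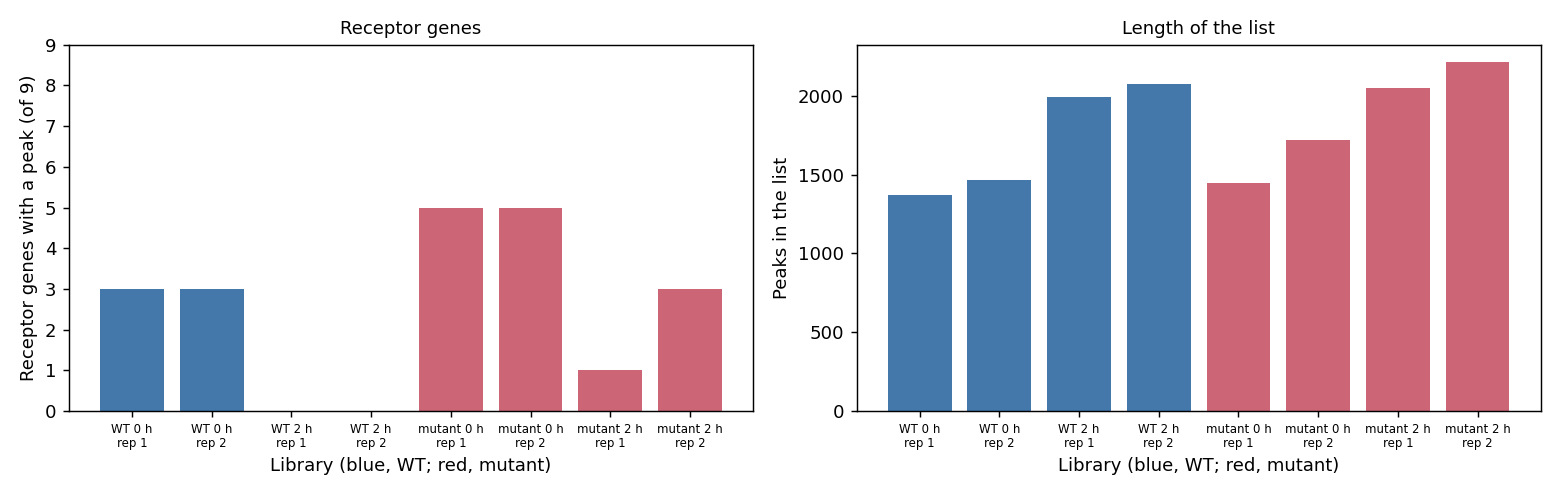
Number of the 9 receptor genes with a peak (left) and number of peaks in the whole list (right) for each immunoprecipitated library, WT in blue and the triple mutant in red. The receptor counts were 3, 3, 0, 0, 5, 5, 1 and 3 from left to right, while every list at 2 h was longer than every list at 0 h.

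The score attached to a peak is the authors' ChIP score, which has no stated scale and is used only to rank peaks within a list. A percentile of 100 marks the top peak of a list. The receptor peaks ranked from 1.86 to 89.9, with a median of 36.3, and 1 of the 20 lay above a percentile of 75. For 8 of the 20 the score was less than 1 unit above the lowest score of the list (against 20.2% of all peaks). A missing call can therefore lie just under the threshold, and a call is no measure of occupancy. The depth behind a call is unknown, as no read counts were analysed here.

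**Figure D2:**
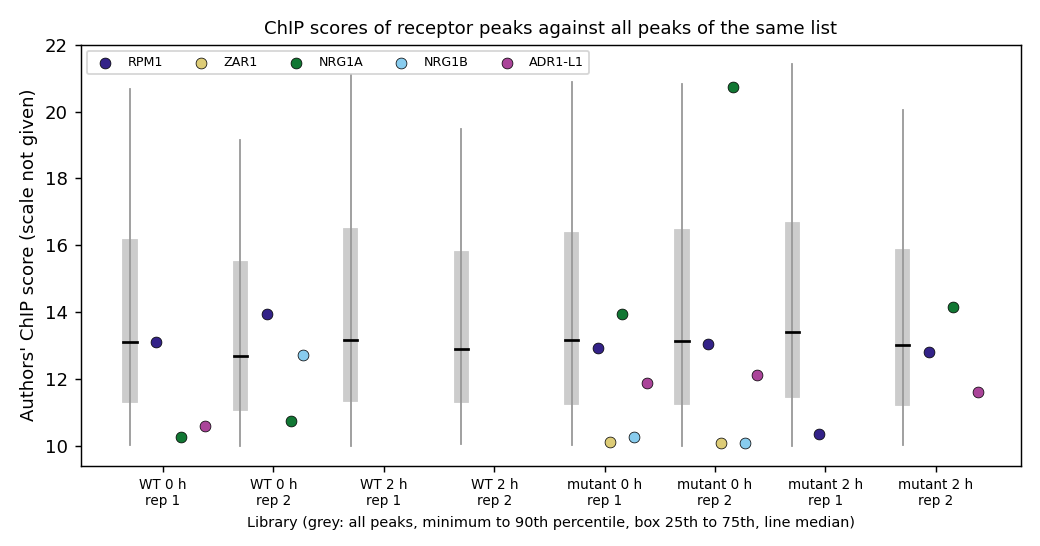
ChIP score (vertical axis, scale not given) of each receptor peak, coloured by gene, beside the scores of all peaks of the same list in grey (line from the minimum to the 90th percentile, box from the 25th to the 75th, bar at the median). The peak of NRG1A in replicate 2 of the mutant at 0 h, with a score of 20.7, stood above the others, and ZAR1 sat at the lower edge of its lists.

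Among the sensors, RPM1 (AT3G07040), which confers resistance to Pseudomonas strains that carry AvrRpm1 or AvrB, was called most often, in 6 of 8 libraries. Its region lay on chromosome 3 at 2228946 to 2229456 (TAIR10), in the promoter, and peak centres were 158 to 206 bp upstream of the transcription start site (TSS). In WT at 0 h RPM1 had percentiles of 50.4 and 62.8 (56.6 ± 8.79, SD, n = 2). It was called in neither WT library at 2 h, where the nearest peak of any gene lay 13148 and 17168 bp away. In the mutant the percentiles were 48.0 and 49.4 at 0 h (48.7 ± 1.01, SD, n = 2) and 6.95 and 47.4 at 2 h (27.2 ± 28.6, SD, n = 2). Both replicates of the mutant thus kept a call at 2 h, but the one in replicate 1 was near the bottom of its list, with a score of 10.4 against a list minimum of 9.98. Where RPM1 was called at 0 h it sat near the middle of the list in both genotypes.

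ZAR1 (AT3G50950), which assembles into a resistosome that acts as a calcium channel, was called in 2 of 8 libraries, both of the mutant at 0 h. The region, on chromosome 3 at 18935577 to 18935982, was centred 55 to 65 bp downstream of the TSS. The percentiles were 2.14 and 1.86 (2.00 ± 0.199, SD, n = 2), and the scores exceeded the list minimum by 0.0765 and 0.0853 units. Both calls were thus among the weakest of their lists. In the other 6 libraries the nearest peak lay 5767 to 39215 bp from the region.

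RPS2 (AT4G26090), the sensor of RIN4 cleavage by AvrRpt2, and RPP13 (AT3G46530) were called in 0 of 8 libraries. No peak that was assigned to another gene carried a feature annotation (promoter, exon, intron or transcript end) of any of the 9 receptors. ABI1, next to RPS2 in the RefSeq gene table, was called in 1 library, with its peak centred 736 bp upstream of the ABI1 start. Next to RPP13, AT3G46540 was called in 3 libraries at percentiles of 1.36 to 26.5, with peak centres 53 to 78 bp upstream of its own TSS.

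**Figure D3:**
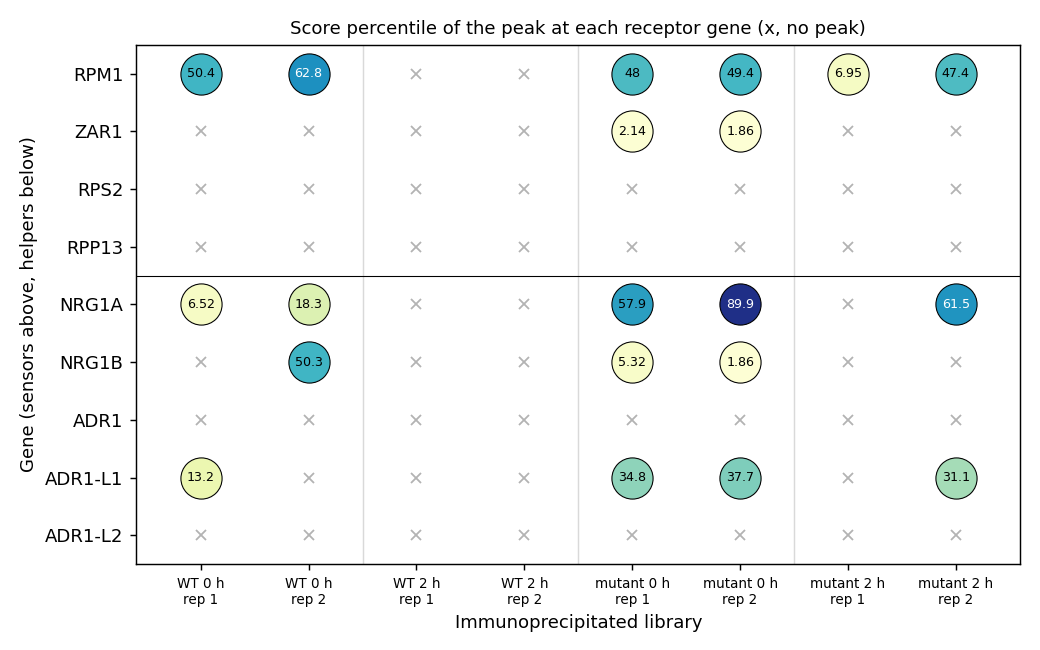
Score percentile of the peak at each of the 9 receptor genes (rows, sensors above the line and helpers below) in each of the 8 libraries (columns). Circles give the percentile, darker for higher, and a cross marks a library with no peak. The columns of WT at 2 h hold crosses alone, and RPS2, RPP13, ADR1 and ADR1-L2 have no circle.

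Among the helpers, NRG1A (AT5G66900) was called in 5 of 8 libraries. Its region lay in the promoter on chromosome 5 at 26717805 to 26718292, with centres 196 to 291 bp upstream of the TSS. In WT at 0 h NRG1A had percentiles of 6.52 and 18.3 (12.4 ± 8.31, SD, n = 2), and it was not called in either WT library at 2 h. In the mutant at 0 h the percentiles were 57.9 and 89.9 (73.9 ± 22.6, SD, n = 2), so both mutant libraries ranked NRG1A higher than both WT libraries at that time. At 2 h the mutant had a call in replicate 2, with a percentile of 61.5, and none in replicate 1. In each replicate number the mutant stood above WT at 0 h, by 51.4 and 71.7 percentile points. An exact two-sided permutation test of 2 against 2 libraries cannot give a p below 0.333, so none was run.

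NRG1B (AT5G66910), the neighbour of NRG1A, was called in 3 of 8 libraries, all at 0 h. Its region on chromosome 5 at 26721173 to 26721782 was separate, with 2881 bp between the edges of the NRG1A and NRG1B regions. NRG1B had a percentile of 50.3 in replicate 2 of WT at 0 h and no call in replicate 1. In the mutant at 0 h the percentiles were 5.32 and 1.86 (3.59 ± 2.45, SD, n = 2). By ChIP score the pair of neighbours thus ranked in opposite order in the genotypes in replicate 2 at 0 h. NRG1B was above NRG1A in WT, and NRG1A far above NRG1B in the mutant. The order in WT held for the ChIP score alone. In that WT library NRG1A exceeded NRG1B by the deposited ef score (7.54 against 5.61) and region log q score (464 against 413). In replicate 1 NRG1A ranked above NRG1B in both genotypes, NRG1B having no call in WT. NRG1C (AT5G66890), the gene on the other side of NRG1A, was called in 0 libraries.

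ADR1-L1 (AT4G33300) was called in 4 of 8 libraries, over its start site on chromosome 4 at 16056275 to 16056713, with centres 5 to 45 bp downstream of the TSS. It had a percentile of 13.2 in replicate 1 of WT at 0 h and no call in replicate 2. In the mutant the percentiles were 34.8 and 37.7 at 0 h (36.3 ± 2.01, SD, n = 2) and 31.1 in replicate 2 at 2 h. The 3 mutant calls thus ranked close together and above the WT call. In the libraries without a call the nearest peak lay 33706 to 33783 bp away and was assigned to BAK1, the co-receptor of the flg22 receptor FLS2.

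ADR1 (AT1G33560) and ADR1-L2 (AT5G04720), the other helpers of the ADR1 family, were called in 0 of 8 libraries. Beside ADR1, AT1G33590 was called in 5 libraries, at 113 bp upstream to 10 bp downstream of its own TSS and with percentiles from 0.656 to 92.2. The genes on either side of ADR1-L2 were called in 0 libraries.

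The difference between the times was described for each genotype by the genes called in both libraries of one time and in neither of the other. In WT, RPM1 and NRG1A were called at 0 h alone, 2 of the 4 receptors with a peak in those libraries, while this held for 2.17% of the 2993 genes with a peak there. In the mutant NRG1B and ZAR1 were called at 0 h alone, 2 of 5, against 0.55% of 3089 genes. No receptor was called at 2 h alone in WT (background 7.85%) or in the mutant (3.59%). The mutant calls rank at the bottom of their lists, and with peaks above each list's median score both counts were 0. RPM1 in replicate 1 of WT at 0 h was dropped there by a tie, its score equalling the list median (13.1). The mutant count was 4 when replicate 2 of the treated mutant was left out, where NRG1A and ADR1-L1 were called.

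All 5 receptors with a peak were called in more libraries at 0 h than at 2 h: RPM1 in 4 against 2, NRG1A in 4 against 1, ADR1-L1 in 3 against 1, NRG1B in 3 against 0 and ZAR1 in 2 against 0. Of the 3609 genes with a peak in any library, 17.9% were called in more libraries at 0 h and 52.4% in more at 2 h. This count was made after the values were seen. The count of called receptors was lower at 2 h within each genotype and replicate number, although single receptors kept their calls in some pairs, such as RPM1 in both replicates of the mutant. With peaks scoring over the list median alone, 3 receptors had more calls at 0 h. Within replicate 1 and replicate 2 of WT 3 and 3 receptors were called at 0 h alone, and within those of the mutant 4 and 2. None of these pairs had a receptor called at 2 h alone (0). No single gene could pass a test here: a gene called in all 4 libraries of one time and none of the other has an exact two-sided p of 0.0286, and the smallest adjusted p over all genes was 1. Fisher's exact test on calls in 4 against 4 libraries, two-sided, gave p = 0.143 for NRG1A and NRG1B, 0.429 for RPM1 and ZAR1 and 0.486 for ADR1-L1, and each adjusted p was 1 over 3609 genes. Of all genes, 46 (1.27%) had an unadjusted p below 0.05 by this Fisher's exact test, and 0 an adjusted one.

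The comparison of genotypes asked which receptors were called in both libraries of one genotype and in neither of the other at the same time. At 0 h ZAR1 was called in both mutant libraries and in neither WT library, 1 of 5 receptors with a peak there (background 1.49%). At 2 h this held for RPM1, 1 of 3 (background 1.63%). No receptor showed the reverse, WT calls alone, untreated (background 0.663%) or treated (1.54%). With equal numbers of peaks both counts were 0, and with peaks scoring over the list median the count was 1 at 0 h, NRG1A in place of ZAR1, and 0 at 2 h. Leaving out either untreated WT library made the first 2. Leaving out replicate 1 of the treated mutant, so that a call in replicate 2 was enough, made the second 3 (RPM1, NRG1A and ADR1-L1). The list of WT 0 h replicate 1 lacked 136 of its 1508 region numbers, so the missing calls of ZAR1 and NRG1B in that library could be missing rows.

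All 5 receptors with a peak were called in more mutant than WT libraries: RPM1 in 4 against 2, NRG1A in 3 against 2, ADR1-L1 in 3 against 1, NRG1B in 2 against 1 and ZAR1 in 2 against 0. Of all 3609 genes 35.8% were called more often in the mutant and 25.8% more often in WT. This count too was made after the values were seen. With only peaks scoring over the list median it was 1 (NRG1A), and RPM1 and NRG1B were called in WT alone. In both pairs of same-numbered libraries at 0 h the mutant held every receptor that WT held, with 2 and 2 more. At 2 h WT held 0 in each pair, so no receptor could be missing from the mutant alone, which held 1 and 3. By Fisher's exact test, two-sided, p was 0.429 for RPM1 and ZAR1, 0.486 for ADR1-L1 and 1 for NRG1A and NRG1B, with every adjusted p at 1. Here too no gene could pass, the smallest adjusted p over all genes being 1: 2 genes (0.0554%) had an unadjusted p below 0.05 and 0 an adjusted one.

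By replicate number the receptors were called 9 times in replicate 1 and 11 times in replicate 2. NRG1A and NRG1B had 1 more call in replicate 2 (43.1% of all genes were called more often there), the other 3 had equal numbers, and 0 had more in replicate 1 (36.8% of all genes). By Fisher's exact test p was 1 for each receptor, and over all genes 241 (6.68%) had an unadjusted p below 0.05 and 0 an adjusted one, the smallest being 0.428. None of the receptors was called in all 8 libraries, so none entered the exact permutation test of percentiles. Over the 483 genes that did, 0 passed after adjustment by time, genotype or replicate number, and 43, 1 and 149 had an unadjusted p below 0.05.

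The peaks shared a place at the start of the gene. All 20 were annotated as promoter, against 64.6% of all peaks, and each receptor had a single region in which every call overlapped. The bases common to all calls spanned 357 bp at RPM1, 266 bp at ZAR1, 274 bp at NRG1A, 537 bp at NRG1B and 215 bp at ADR1-L1. The regions of RPM1, NRG1A and NRG1B were centred upstream of the TSS and those of ZAR1 and ADR1-L1 just downstream of it.

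At RPM1, NRG1A, NRG1B and ADR1-L1 the maxima fell into separate ranges by replicate number among the libraries with a call. None of them had a call in WT at 2 h, and NRG1B had 1 call in replicate 1. At RPM1 the maximum lay 272 to 278 bp upstream of the TSS in the 3 libraries of replicate 1 and 103 to 149 bp upstream in the 3 of replicate 2. At NRG1A it lay 194 to 211 bp upstream in replicate 1 and 110 to 127 bp upstream in replicate 2. NRG1B had its maximum 118 bp upstream in replicate 1 and 327 to 340 bp upstream in replicate 2, the reverse order. At ADR1-L1 the ranges were separate too but close, 15 to 17 bp downstream in replicate 1 and 26 to 32 bp in replicate 2, and at ZAR1 the single maxima of replicates 1 and 2 lay 122 and 47 bp downstream. Over all regions of the series the median distance between the maxima of 2 libraries was 9 to 27 bp for pairs of the same number and 61 to 77 bp for pairs of the same group.

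**Figure D4:**
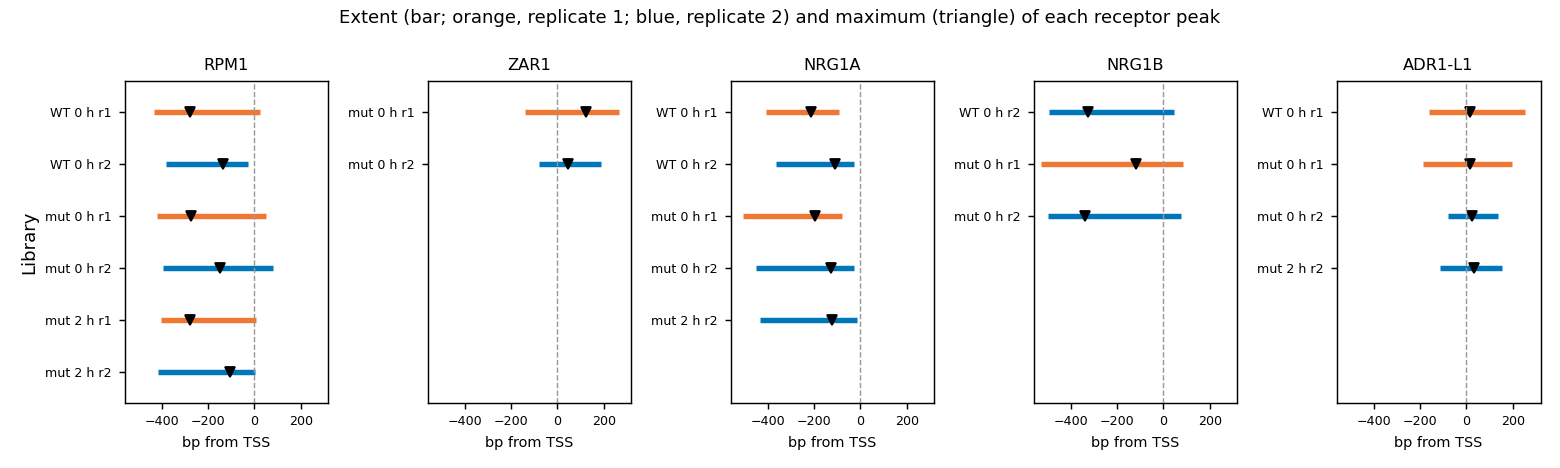
Extent (bars) and maximum (triangles) of each receptor peak in bp from the TSS, negative upstream, one row per library with a call, replicate 1 in orange and replicate 2 in blue. At RPM1 and NRG1A the triangles of replicate 1 sit farther upstream than those of replicate 2, and at ADR1-L1 all sit close to the TSS.

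Other receptors and the partners of these receptors were read from 2 further lists. Of 27 other intracellular receptors, 0 were called in both libraries of any group, where the share of all protein-coding genes was 2.83% to 3.87%. There were 7 with a call in at least 1 library, against 12.4% of all genes (LOV1, RLM1A, LAZ5, RPP8, RPS4, SNC1 and WRR4A, named here after their values were seen), and all of their calls were in replicate 2 libraries: 4 in untreated WT, 4 in treated WT, 4 in the untreated and 6 in the treated mutant, with 0 in each of the 4 libraries of replicate 1. The shares of all genes called in a library were 4.59% to 7.11%. RPM1, NRG1A, NRG1B, ADR1-L1 and ZAR1 were each called in both replicate numbers. LOV1, the receptor behind sensitivity to the fungal toxin victorin, had percentiles of 56.1 in untreated WT, 60.5 in the untreated mutant and 37.2 in the treated mutant. RPS4, a sensor of AvrRps4, was called in the mutant alone, with 24.9 at 0 h and 58.2 at 2 h. The peaks assigned to RPP8 were annotated to the transcript end of AT5G43480, with centres 636 to 653 bp downstream of the RPP8 TSS. More calls at 0 h were seen for 2 of the 7 and more at 2 h for 3, against 17.9% and 52.4% of all genes with a peak.

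Of 21 partners and chaperones, 3 were called in both libraries of untreated WT, 2 in treated WT, 3 in the untreated mutant and 3 in the treated mutant, against 2.83%, 3.87%, 3.15% and 3.83% of all genes. SGT1A, a co-chaperone that helps receptors fold, was called in all 8 libraries with percentiles from 89.5 to 98.4, and its peak centres lay 374 to 454 bp upstream of the TSS. RIN4, the host protein guarded by RPM1 and RPS2, was called in 7 libraries, with percentiles from 46.2 in replicate 1 of the mutant at 0 h to 74.0 in replicate 2. Its calls fell at separate places, near the TSS in 4 libraries and 785 to 876 bp upstream in 3, and the percentiles span both places. The upstream calls were all of replicate 1, in treated WT and in the mutant at both times. Calls near the TSS were those of both untreated WT libraries and of replicate 2 of the mutant at both times. In the mutant the replicates thus shared RIN4 as a gene but not as a site, and the counts above for both mutant groups include it. RIN4 was called in replicate 1 of WT at 2 h with 66.2, at the upstream place, and not in replicate 2. ZED1, the pseudokinase that links ZAR1 to an acetyltransferase effector, was also called in 7 libraries, with percentiles from 27.2 to 80.9. SAG101, the partner of the NRG1 helpers, had a call in each treated WT library, with 42.8 and 71.1, and in neither untreated one. It had 1 call in the mutant at 0 h (29.9) and 1 at 2 h (39.3). Of the 8 partners with a call, 3 had more calls at 0 h and 4 more at 2 h, beside the same 17.9% and 52.4%. EDS1 and PAD4, the partners of the ADR1 helpers, had none.

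**Figure D5:**
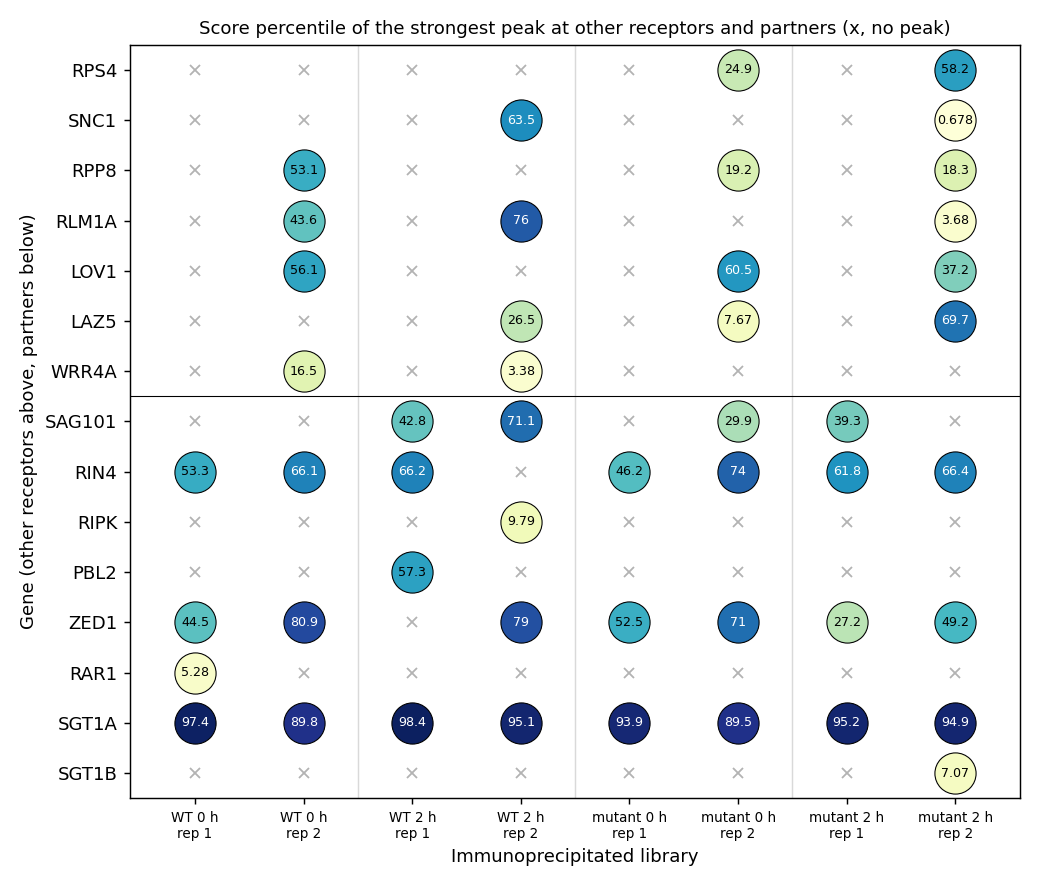
Score percentile of the strongest peak at other intracellular receptors (above the line) and at partners and chaperones (below it) with a call in at least 1 of the 8 libraries. Circles give the percentile and crosses mark no peak. The other receptors have circles in replicate 2 columns alone, and SGT1A has a circle of 89.5 or more in every column.

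Genes with the most similar percentiles over the 8 libraries, with 0 for no call, were named for the receptors called in at least 4. For RPM1 the nearest were ESK1, with a mean absolute difference of 3.34 percentile points, and SAG24, with 9.38. Like RPM1, both were called in both libraries at 0 h in each genotype and in neither WT library at 2 h. For NRG1A the nearest were OASA2 (4.80) and AT3G11860 (8.21), called in replicate 2 of WT at 0 h and in the same mutant libraries as NRG1A. For ADR1-L1 they were LYM1 (6.29), called in 2 libraries, and AT1G03820 (6.41), called in 6. These are the closest of 3609 genes on 8 values.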

How the data were processed

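Anti-WRKY ChIP-seq of 8 libraries (2 biological replicates in each of 4 groups) was read from 1 peak list per library; 8 input libraries served as controls, per the labels, and were not used here. DNA was linearly amplified before library construction, per the labels' protocols, which can change the balance between fragments. Tools listed, per the submitters' processing notes, are Bowtie2 2.0.5, cutadapt 1.2.1, FastQC 0.11.2, HOMER and SAMtools 0.1.18, and the build is TAIR10; of the peak caller nothing is said. Each deposited table gives the authors' nearest promoter and, with no stated scale, a region log q score, an ef score and a ChIP score for every peak. The lowest ChIP score was 9.98 to 10.0 in every list.

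From these, percentiles within lists, calls per gene (transcript suffix removed) and regions merged at 1 bp of overlap were computed with Python 3.11.15, pandas 2.3.3, NumPy 2.4.6 and SciPy 1.17.1. The distance of a maximum to the TSS was worked out from the deposited distance, which is measured from the peak centre. Fisher's exact test and an exact permutation test of 4 against 4 libraries, checked on simulated data, were run on all genes and adjusted by Benjamini-Hochberg over all genes tested; the smallest p is 0.0286, and 0.333 for 2 against 2. The RefSeq table (TAIR10.1) gave names, neighbours and the 27444 protein-coding genes, and held all 9 receptors and both further lists; no coordinates were taken from it.

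The receptors, the further lists and the tests were chosen with earlier results of these data known. All receptors are named. List genes were to be named when called in both libraries of a group, to at most 12 a list, and the 2 most similar genes for each receptor called in at least 4 libraries. The series' design states 2 biological replicates analysed over all conditions. Differences between replicates 1 and 2 in calls correlated between groups over 3609 genes (0.315 to 0.460), so the numbers were taken to pair the libraries. Alternatives were peaks above the median score, equal numbers of peaks, a TSS window, an ef score minimum of 5, sites in place of genes, leaving out each library and the replicate block.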

Additional observations from a re-analysis of the deposited data

Results flagged for a closer look

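RPM1 was singled out because its difference between genotypes went opposite ways at the 2 times. With 0 for no call, the mutant minus WT difference in score percentile was -2.37 and -13.4 in replicates 1 and 2 at 0 h (mean -7.87) and 6.95 and 47.4 at 2 h (mean 27.2). The difference between the times was not tested. At 2 h the WT values are absent calls, which place RPM1 anywhere under the threshold of those lists.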

How the results depend on the processing

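Counts of receptors rest on few and often weak calls. With peaks above each list's median score, the receptors called in both libraries numbered 0 for untreated WT, 1 for the untreated mutant (NRG1A) and 0 for the treated mutant. The counts called at 0 h alone were then 0 in WT and 0 in the mutant. RPM1 no longer separated the genotypes at 2 h (0). More calls at 0 h and in the mutant held for 3 and 1 receptors, and RPM1 and NRG1B were called in WT alone. With equal numbers of peaks, the counts were 3 for the untreated mutant, 0 for the treated mutant, 1 for 0 h alone in the mutant, 0 and 0 for the mutant alone at 0 h and 2 h, and 3 for more calls in the mutant; WT kept 2 receptors called at 0 h alone. Fewer peaks were used in both settings. The median setting dropped RPM1 in replicate 1 of untreated WT, whose score equalled the list median. Leaving out 1 library, the range was 1 to 3 for both libraries of the mutant at 2 h and 2 to 4 for 0 h alone in the mutant. It was 1 to 2 for the mutant alone at 0 h and 1 to 3 for the mutant alone at 2 h. A group with 1 library left needed a call in that library alone. Compared as shares of the libraries left, more calls at 0 h and in the mutant stayed at 5 receptors without any 1 library. By number of calls, NRG1A and NRG1B tied between genotypes without either untreated mutant library. NRG1A also tied without replicate 2 of the treated mutant. Under the replicate block, the mean count within same-numbered pairs was 2 for the mutant alone at 0 h and 2 at 2 h, and it changed no other count by more than 1.5 times. The TSS window, the ef score minimum and sites in place of genes changed no receptor count by more than 1.5 times. The tests over all genes gave 0 in each alternative where they were run. They were not run with equal numbers of peaks or with sites in place of genes. Under the replicate block only calls by time and by genotype were tested. In this design few or no genes could pass, so this says nothing about stability.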
